A study of Homo sapiens with 8 samples.

Results

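The 10 genes described here shape the actin cortex beneath the cell membrane. They are the gelsolin family genes GSN, CAPG, SCIN, AVIL and VIL1, the ERM genes EZR, MSN and RDX, the sialomucin gene PODXL, and TAGLN. Members were chosen by gene symbol, and the list was drawn up with the estradiol against vehicle differences of these same arrays in view. Those differences are therefore given as a description, with sizes and errors and without p-values. For a member, "called" says only that its row passed the threshold in the fit over all rows, and it is no independent evidence that the member differed. Each symbol had a row, so 10 of 31412 named rows are described. An additional row under VIL2, the older symbol of EZR, is shown beside it and is not counted. Of the 10 genes, 7 reached the signal of detected genes and 3 (SCIN, AVIL and VIL1) did not.

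The cells were MDA-MB-231, a triple-negative breast cancer line with mesenchymal features, carrying a doxycycline-inducible oestrogen receptor beta (ERβ, encoded by ESR2) and held under blasticidin and zeocin selection. All cultures received doxycycline at 100 ng/ml in medium with charcoal-stripped serum, vehicle cultures included, so all were induced to make ERβ. The vehicle group received ethanol and the estradiol group 1 nM 17-beta estradiol, for 5 days, with 3 cultures each. Total RNA was measured on 8 Illumina bead arrays, since a second RNA sample was run for vehicle culture 3 and for estradiol culture 1, and arrays of the same culture were averaged. No culture lacked doxycycline, so effects of estradiol that need ERβ and those that do not cannot be told apart. No label states whether replicates came from separate passages, so the errors cover only the spread between these cultures. The number of cultures, 3 per treatment, limits the precision.

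Gelsolin family proteins bind actin through repeated gelsolin domains and, when calcium rises, sever or cap filaments. Their activity is held back by membrane phosphoinositides. Ezrin, radixin and moesin link the cytoplasmic tails of membrane proteins to cortical filaments once they are phosphorylated and opened. Podocalyxin is one of the membrane proteins they anchor, through the scaffold NHERF1, and is known for keeping the foot processes of kidney podocytes apart. In epithelial tumours, gelsolin is often reduced and podocalyxin and moesin are linked to invasive behaviour.

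The line was checked against its markers. VIM, CD44, EGFR, KRT18, CAV1 and S100A4, which this line is known to express, lay above the floor on all 8 arrays. ESR1, PGR and KRT5 were above it on none, KRT14 on 1, and neither PTPRC, PECAM1, ALB nor KRT20, markers of other cell types, on any. ERBB2, expected to be absent from a triple-negative line, and EPCAM, expected to be low, were above the floor on all 8. CDH1, which encodes E-cadherin, was above it on the 4 estradiol arrays only. The raw signal of ERBB2 (a combined row) was 219 to 312 in vehicle and 241 to 330 in estradiol. That of EGFR was 214 to 321 and 193 to 241. A detection p under 0.01 was passed by ERBB2 on 1 array and by EGFR on 3. The introduced receptor gene ESR2 was above the floor throughout and lower with estradiol (log2 difference -1.17, SE 0.118), so the groups differ in receptor transcript as well as in ligand. The floor was the lowest signal of any detected single-probe row on an array, 78.1 to 93.3 units. The 8 arrays lay on 2 chips. Chip A held vehicle culture 1, the repeat of vehicle culture 3 and estradiol culture 1, and chip B the other 5.

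**Figure D1:**
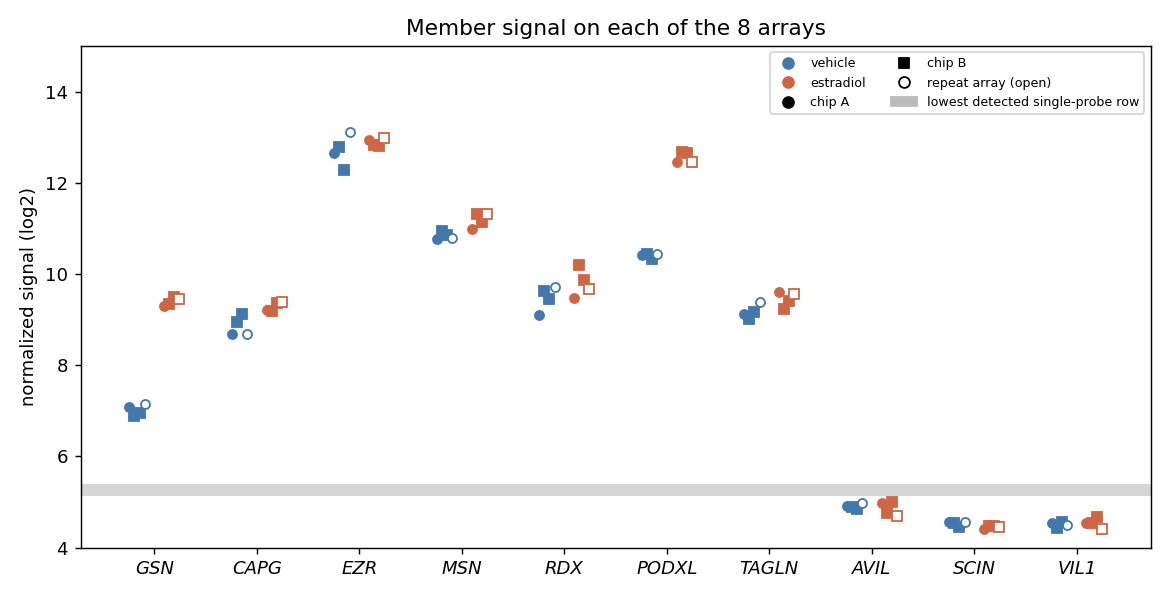
Normalized signal (log2, vertical axis) of the 10 genes on each of the 8 arrays, vehicle in blue and estradiol in orange, circles for chip A and squares for chip B, open symbols for repeat arrays. The grey band spans the lowest detected single-probe level of the arrays, 5.14 to 5.39. GSN and PODXL separate by treatment with a wide gap, the estradiol arrays of CAPG and MSN lie slightly above the vehicle arrays, and AVIL, SCIN and VIL1 stay under the band.

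With estradiol, GSN and PODXL were 5.29-fold and 4.55-fold higher, CAPG and MSN were 1.36-fold and 1.28-fold higher, and EZR, RDX and TAGLN did not pass the threshold. In a limma fit over all 12164 rows tested, 4 of the 7 measured members were called higher and 0 lower at an adjusted p under 0.05. Over all rows, 13.7% were called higher and 14.4% lower. Since the list was made with this contrast known, nothing is read from that count. The median log2 difference was 0.44 over the 7 members and -0.02 over all rows tested. By culture, the groups did not overlap in either direction for 5 of the 7 (GSN, CAPG, EZR, MSN and PODXL), against 43.2% of all rows. In these 5 members the estradiol cultures were the higher. For EZR the nearest cultures were only 0.019 apart, and the repeat array of vehicle culture 3 was the brightest of all 8. Nothing is read from this count either. In bulk cultures, a larger share of cells with a transcript and more of it per cell cannot be told apart.

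**Figure D2:**
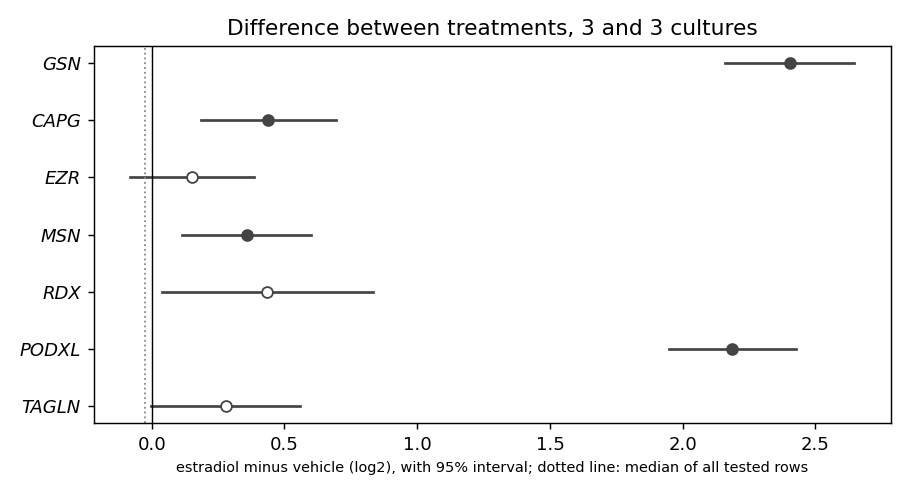
Log2 difference of estradiol minus vehicle (horizontal axis) with its 95% interval for the 7 members above the floor, from 3 cultures per treatment. Filled points were called in the fit over all rows and open points were not. The intervals of GSN (2.16 to 2.65) and PODXL (1.95 to 2.43) lie apart from those of the other 5, which all end under 0.84.

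GSN encodes gelsolin, which severs filaments and caps their fast-growing ends. Its raw signal was 196 on the vehicle 1 array, 148 on vehicle 2, 157 on vehicle 3 and 164 on the repeat of vehicle 3. With estradiol it was 733 on the array of culture 1, 713 on its repeat, 764 for culture 2 and 832 for culture 3. The lowest estradiol array was thus far above the highest vehicle array, and the repeats stayed close to their first arrays. After normalization the culture means on the log2 scale were 7.09, 6.88 and 7.05 for vehicle and 9.38, 9.34 and 9.49 for estradiol. The log2 difference was 2.40 (SE 0.110, 95% interval 2.16 to 2.65, n = 3 cultures each), which ranked 39 among the 12164 tested rows by increase. Within chip A, with 1 estradiol array against 2 vehicle arrays, it was 2.20, and within chip B it was 2.52.

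The GSN difference was much smaller when the background was inferred from all rows, and changed less under the other background settings. The row combines several probes, and its detection p-values of 0.0536 to 0.479 would leave it undetected on every array, although its signal exceeded the floor on all 8. When the background was inferred from all rows, combined rows included, the log2 difference was 0.95. That estimate put the background SD at 292 to 397 units on the 8 arrays, against 7.61 to 11.6 from single-probe rows. It uses detection p-values that do not rank the signal of combined rows. The log2 difference was 2.06 with no background correction and 2.13 with an offset of 50. In the values that the authors normalized it was 2.04. There the vehicle arrays lay between 162 and 188 and the estradiol arrays between 682 and 743. How many of its probes carried the signal could not be seen in a combined row. GSN makes a secreted plasma form and a cytoplasmic form from different starts, and a gene-level row does not tell which form was measured.

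CAPG encodes a gelsolin relative that caps filament ends and does not sever them. Its log2 means were 8.69, 8.94 and 8.90 in vehicle cultures 1 to 3 and 9.29, 9.18 and 9.37 in estradiol cultures 1 to 3. The groups did not overlap, with a gap of 0.25 between the nearest cultures and a log2 difference of 0.44 (SE 0.115, 95% interval 0.18 to 0.69). The repeat array of vehicle culture 3 lay below the first array of that culture by a log2 difference of -0.42, nearly the size of the difference between treatments. Without that repeat the difference was 0.37, and without estradiol culture 3 it was 0.40. Neither was called. Within chip A the difference was 0.51 and within chip B 0.29, neither of them called.

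SCIN (scinderin, which severs cortical actin in secretory cells), AVIL (advillin, known from sensory neurons) and VIL1 (villin, which bundles the core of intestinal microvilli) gave no signal above the floor on any of the 8 arrays. The raw signal of SCIN was 53.7 to 66.1 and that of VIL1 was 52.4 to 67.0, within the range of the background. AVIL was slightly brighter, at 65.4 to 80.2, and its lowest detection p was 0.0299. No difference is given for these 3 genes, whose level was not measurable at this signal.

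Of the relatives outside the list, SVIL and FLII also carry gelsolin repeats and were measured, while VILL was not above the floor. SVIL, which encodes the membrane-linked supervillin, rose by a log2 difference of 0.56 (SE 0.108), from a mean of 8.76 to 9.32. FLII, a gelsolin-repeat protein that also acts as a nuclear receptor coactivator, was at -0.23 and did not pass. Of these 2 tested relatives 1 rose and 0 fell.

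The starts of the genes called higher were inspected in RefSeq promoter windows of GRCh38.p14, each running from 250 bases before to 50 bases after a start. The table held 16 windows for 7 of the 10 genes (6 for GSN, 4 for CAPG, 2 for MSN, and 1 each for EZR, RDX, SCIN and AVIL). PODXL, TAGLN and VIL1 had no entry. The full palindromic oestrogen response element GGTCANNNTGACC was in 0 of the 16, and in 0.057% of 35116 windows of the same length. Its half-site GGTCA, searched on both strands and contained in the full element, was in 4 of the 16 and in 37.4% of all windows. Those 4 belong to GSN, CAPG and MSN and are shown because these 3 genes were called higher. The half-site is in capitals (TGACC where it lies on the opposite strand), and its first base is at -188, -218, -205 and -230 from the start, in the order printed. Each line reads 5′ to 3′ in the direction of the gene. The fourth of the GSN windows lies at chr9:121286299-121286598 on the plus strand, and the fourth of the CAPG windows at chr2:85409763-85410062 on the minus strand. The MSN windows lie at chrX:65588127-65588426 and chrX:65667404-65667703 on the plus strand.
GSN, window 4: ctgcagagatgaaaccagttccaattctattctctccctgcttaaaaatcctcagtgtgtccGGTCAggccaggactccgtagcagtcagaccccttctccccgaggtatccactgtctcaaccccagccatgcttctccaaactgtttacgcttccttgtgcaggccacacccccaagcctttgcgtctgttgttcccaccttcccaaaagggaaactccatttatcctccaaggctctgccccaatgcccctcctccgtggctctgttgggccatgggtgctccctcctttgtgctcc
CAPG, window 4: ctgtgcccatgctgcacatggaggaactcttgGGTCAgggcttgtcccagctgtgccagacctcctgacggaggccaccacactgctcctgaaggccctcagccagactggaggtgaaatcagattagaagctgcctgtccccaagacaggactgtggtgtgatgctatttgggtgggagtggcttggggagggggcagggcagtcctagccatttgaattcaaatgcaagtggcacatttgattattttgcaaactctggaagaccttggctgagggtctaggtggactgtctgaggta
MSN, window 1: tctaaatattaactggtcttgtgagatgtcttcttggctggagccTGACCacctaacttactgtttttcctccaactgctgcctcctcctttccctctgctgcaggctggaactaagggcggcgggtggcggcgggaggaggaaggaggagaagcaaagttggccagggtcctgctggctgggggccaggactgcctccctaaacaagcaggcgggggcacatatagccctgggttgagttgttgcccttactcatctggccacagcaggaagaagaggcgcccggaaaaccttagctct
MSN, window 2: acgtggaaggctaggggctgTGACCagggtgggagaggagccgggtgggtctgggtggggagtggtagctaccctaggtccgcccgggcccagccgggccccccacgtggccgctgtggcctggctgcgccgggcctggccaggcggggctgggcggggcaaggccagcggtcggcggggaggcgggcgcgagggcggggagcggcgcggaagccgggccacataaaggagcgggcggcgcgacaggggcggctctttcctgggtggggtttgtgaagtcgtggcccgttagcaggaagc

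These matches describe letters only. Both strands were searched for exact matches of the whole motif, and matches were allowed to overlap. The GC box GGGCGG was in 9 of the 16 windows against 45% of all windows, and the AP-1 motif TGANTCA in 2 of the 16 against 7.71%. The other 5 GSN windows held no half-site. Among them were windows 1 and 2, the furthest upstream, with a GC content of 79.3% and 76.3%. Which start was in use in these cells was not measured.

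MSN encodes moesin, the ERM protein that prevails in leukocytes and mesenchymal cells. Its log2 means were 10.77, 10.94 and 10.82 in vehicle cultures 1 to 3 and 11.16, 11.32 and 11.13 in estradiol cultures 1 to 3. The groups stood 0.19 apart at their nearest cultures. The log2 difference was 0.36 (SE 0.110, 95% interval 0.11 to 0.60), or 0.22 within chip A and 0.36 within chip B. The call was lost within either chip and in 7 further alternatives: without vehicle culture 1 (0.32) or 3 (0.35), without estradiol culture 2 (0.30) or 3 (0.39), without the repeat of vehicle culture 3 (0.35), without both repeats (0.29), and with the estradiol repeat averaged into culture 3 (0.34).

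EZR encodes ezrin, the ERM protein of epithelial microvilli. It had a raw signal of 7257 on the vehicle 1 array, 6601 on vehicle 2, 4937 on vehicle 3 and 6858 on its repeat, and of 8387 and 8047 on the arrays of estradiol culture 1, 7678 for culture 2 and 7421 for culture 3. Every estradiol array was above every vehicle array in raw signal. After normalization the repeat of vehicle culture 3 became the brightest of all 8, at 13.12 against 12.28 for the first array of the same culture. This gap of 0.83 between 2 RNA samples of a single culture is larger than the difference between treatments, which was 0.15 (SE 0.106, 95% interval -0.08 to 0.38). The VIL2 row showed a like pattern, with a gap of 0.74 and a difference of 0.19 (SE 0.106). Both rows were near or at 0 within chip A (0.05 for EZR and 0.003 for VIL2) and higher within chip B (0.34 and 0.38). Without the repeat array EZR was at 0.29 and VIL2 at 0.32, again not called.

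RDX encodes radixin. Its culture means of 9.11, 9.63 and 9.58 in vehicle and 9.57, 10.19 and 9.87 in estradiol overlapped, and its spread was the widest of the 7, with an SD of 0.29 in vehicle and 0.31 in estradiol. The lowest culture of each treatment was culture 1. The log2 difference was 0.44 (SE 0.180, 95% interval 0.04 to 0.83), as large as that of CAPG with a wider error, and it was not called. Within chip A it was 0.06 and within chip B 0.37, and with the chip as a block 0.13. Both cultures numbered 1 had an array on chip A, and so had vehicle culture 3. Vehicle culture 3 was at 9.71 on chip A and 9.45 on chip B. Estradiol culture 1 was at 9.47 on chip A and 9.67 on chip B. Why culture 1 was the lowest was not tested. Without estradiol culture 1 the difference was 0.59 and was called, without vehicle culture 1 it was 0.27, and without estradiol culture 2 it was 0.28, the last 2 not called. It was also called under median centring (0.59), with array weights (0.37) and with the replicate number as a block (0.44, SE 0.109).

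PODXL encodes podocalyxin, a heavily sialylated membrane protein of the CD34 family. Its raw signal on the vehicle arrays was 1554 for culture 1, 1300 for culture 2, 1247 for culture 3 and 1182 for the repeat of culture 3. On the estradiol arrays it was 6211 for culture 1, 5666 for its repeat, 6911 for culture 2 and 6833 for culture 3. The 2 ranges were far apart, and the vehicle cultures were tightly grouped after normalization (10.42, 10.44 and 10.38, SD 0.03), against 12.46, 12.68 and 12.66 with estradiol (SD 0.12). The log2 difference was 2.19 (SE 0.108, 95% interval 1.95 to 2.43), which ranked 49 by increase. It was 2.03 within chip A, 2.22 within chip B, 2.11 in the values normalized by the authors and 2.65 when all rows served to infer the background, and it was called in all 21 alternatives in which the row was tested. As for GSN, the row combines several probes. It passed a detection p under 0.01 on 1 of the 8 arrays, with a signal many times the floor on all of them, so a filter on detection p set it aside.

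TAGLN encodes transgelin, a calponin-family protein that crosslinks actin filaments and is abundant in smooth muscle. Its log2 means were 9.11, 9.01 and 9.27 in vehicle and 9.59, 9.24 and 9.41 in estradiol cultures 1 to 3. The groups overlapped, since estradiol culture 2 lay under vehicle culture 3. The log2 difference was 0.28 (SE 0.127, 95% interval -0.000883 to 0.559), and 0.37 within chip A and 0.32 within chip B. It was not called, except with the chip as a block (0.33) and under median centring of the arrays (0.44).

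**Figure D3:**
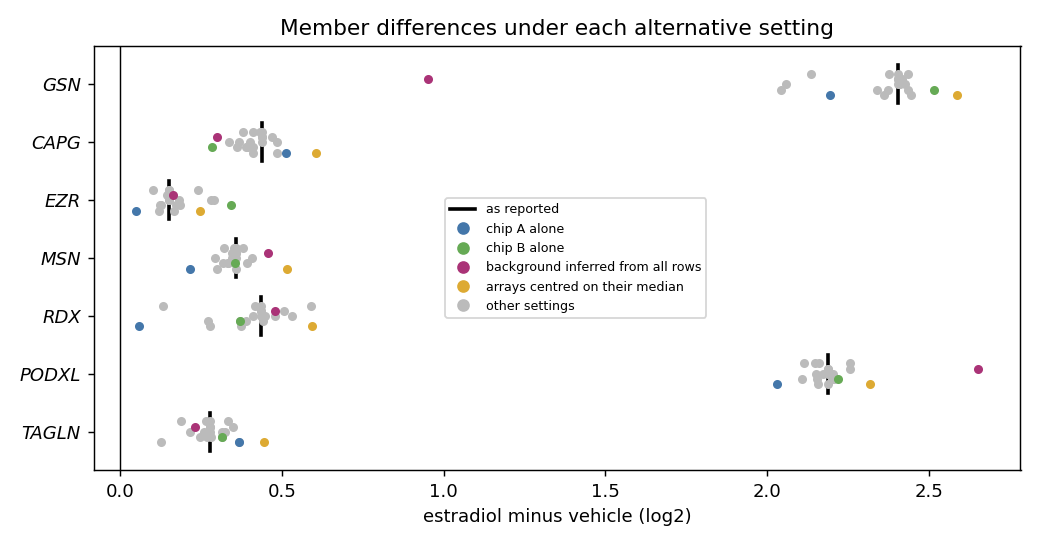
Log2 difference of estradiol minus vehicle (horizontal axis) for the 7 members as reported (black bars) and under each alternative (points, with the 2 chips, the background inferred from all rows and median centring in colour). No member changed sign. GSN ranged from 0.95 to 2.59, PODXL from 2.03 to 2.65, and the other 5 from 0.05 to 0.60.

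Related genes were set beside the members in 10 lists, and the same limma fit over all rows was used. Among them 31 genes were called, with adjusted p-values up to 0.0463. Over all rows tested, 13.7% were called higher and 14.4% lower. The lists were chosen with earlier results known, so nothing is read from their counts. Of the 31, 0 changed sign under any alternative and 7 stayed called under all of them. The alternatives reuse the arrays on which the 31 were called, so this count is no independent support. TMOD1, ACTG2, SLC9A3R2 and TAGLN3 entered the fit only through the treatment where they were brighter. Many differences shrank when all rows served to infer the background (the all-row background). That estimate has the wide background SD given for GSN and uses detection p-values that do not rank combined rows. Of genes that stayed called there, TMOD1 was at 0.40, MUC1 at 0.55, ACTG2 at 0.09, ADD3 at 0.16, SMTN at -0.10 and FHL1 at -0.13. SLC9A3R2 (0.03), EPS8 (0.05), MKL1 (0.03), EPB41L2 (0.04), FLNA (0.17), COTL1 (-0.27), TAGLN3 (-0.03), CLIC5 (-0.04), MYLK (-0.03), TPM3 (-0.08) and TPM1 (0.51) were not called in that setting. The 2 CD34 family relatives of PODXL were both measured. CD34, the sialomucin of blood progenitors and vessels, rose by 1.31 (SE 0.0996) from a mean of 6.41 to 7.72, and was at 0.19 with that other background. PODXL2, which encodes endoglycan, was at 0.28 and did not pass.

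Of the membrane partners and scaffolds of ERM proteins, 3 of 11 tested rose, 1 fell and 7 did not pass, with a median log2 difference of 0.13. SLC9A3R1, which encodes the scaffold NHERF1 that joins podocalyxin to ezrin, rose by 1.18 (SE 0.117) from 10.53 to 11.71. SLC9A3R2, the gene of the related scaffold NHERF2, was under the floor on all vehicle arrays and above it on all 4 estradiol arrays. It was at least 1.19-fold higher against that floor on the reported scale alone. In the values normalized by the authors its log2 difference was 0.39. The call was lost under the all-row background (0.03) and within chip A, which has 1 estradiol array. The fitted difference there was 1.03, against 0.71 over all arrays. ICAM2, an adhesion receptor whose tail binds ERM proteins, rose by 0.54 (SE 0.118). CLIC5, which encodes a chloride intracellular channel protein found with ezrin in podocytes, fell by 0.44 (SE 0.135), a call lost under 11 of 22 alternatives. CD44 (0.13) and ICAM1 (-0.05), receptors that ERM proteins bind, did not pass.

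The FERM-domain relatives had 1 of 4 higher, EPB41L2 (0.40, SE 0.129), a call that 12 of 22 alternatives removed. NF2, the gene of merlin, was not above the floor on any array.

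Filament capping and severing factors outside the gelsolin family had 5 of 17 higher, 1 lower and 11 not past the threshold, with a median of 0.13. TMOD1, which encodes the pointed-end cap tropomodulin 1, was under the floor on every vehicle array and above it on all 4 estradiol arrays. It was at least 7.22-fold higher against that floor on the reported scale alone, since the log2 difference was 2.39 in the values normalized by the authors, 2.45 with an offset of 50 and 0.40 under the all-row background. The membrane skeleton gene ADD3, of gamma-adducin, rose by 0.87 (SE 0.141), and CAP2, a cyclase-associated protein gene, by 0.54 (SE 0.112). ADD3 reached the floor on all 8 arrays but passed a detection p under 0.01 on 2, so that filter set it aside. EPS8, the gene of a barbed-end capper, rose by 0.90 (SE 0.246), a call lost under 6 of 22 alternatives. COTL1, which encodes a coactosin-like protein, fell by 0.68 (SE 0.142), a call lost within chip A (-0.70) and under the all-row background (-0.27). The cofilin gene CFL1 (0.03), DSTN (0.19) and the capping protein genes CAPZA2 (0.10) and CAPZB (0.13) did not pass.

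Of the crosslinkers and bundlers 4 of 13 rose, 1 fell and 8 did not pass. MARCKSL1, whose product binds actin and membrane phosphoinositides, rose by 2.24 (SE 0.104) from 8.07 to 10.31. FSCN1, the gene of the filopodial bundler fascin, rose by 1.02 (SE 0.112), and FLNA, the gene of filamin A, by 0.43 (SE 0.125). The FLNA call was lost under 10 of 22 alternatives. LCP1, which encodes the leukocyte bundler L-plastin, fell by 0.67 (SE 0.117), and its relative PLS3 was at 0.08.

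In the microvillus list 1 of 4 tested genes rose, the mucin gene MUC1 (1.70, SE 0.113), and 3 did not pass. The intestinal brush border genes MYO1A, MYO7B and USH1C were, like VIL1, above the floor on no array. In the calponin family beside TAGLN, TAGLN2 rose by 0.37 (SE 0.110). TAGLN3, from a combined row, was under the floor on every estradiol array (at least 1.24-fold lower on the reported scale, a nominal bound). Its log2 difference was -0.32 in the values normalized by the authors, and its call was lost under 2 of 21 alternatives. The TAGLN2 call was lost under 4 of 22. CNN2 (-0.17) and CNN3 (-0.24) did not pass, and CNN1 was not above the floor.

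Of the actins and smooth-muscle contractile genes, 3 of 13 tested were higher, 3 lower and 7 not past the threshold, with a median of -0.02. Over all rows 13.7% were higher and 14.4% lower, and nothing is read from this count. ACTG2, the enteric smooth-muscle actin gene, was under the floor on every vehicle array and above it on all 4 estradiol arrays. It was at least 2.03-fold higher against that floor on the reported scale alone, with a log2 difference of 1.12 in the values normalized by the authors, 1.01 with an offset of 50 and 0.09 under the all-row background. VCL, the vinculin gene, rose by 0.39 (SE 0.110), a call lost under 6 of 22 alternatives. TPM1, a tropomyosin gene, rose by 0.42 (SE 0.127), a call lost under 8 of 22. SMTN, the gene of smoothelin, fell by 0.92 (SE 0.140) and TPM3 by 0.43 (SE 0.142). MYLK, the myosin light chain kinase gene, fell by 0.36 (SE 0.118). The calls of TPM3 and MYLK were lost under 11 of 21 and 15 of 22 alternatives. The cytoplasmic actin genes ACTB (0.12) and ACTG1 (-0.11), ACTA2 (-0.08) and MYL9 (0.14) did not pass. Of the SRF and MRTF list, whose factors are known regulators of TAGLN in smooth muscle, 2 of 11 rose, 2 fell and 7 did not pass. The LIM protein gene FHL1 fell by 1.03 (SE 0.142) and SRF by 0.55 (SE 0.102), while FHL2 rose by 0.68 and MKL1, now named MRTFA, by 0.47 (SE 0.105). The MKL1 call was lost under 3 of 22 alternatives, within chip A (0.67), within chip B (0.37) and under the all-row background (0.03), and the SRF call under 2 of 22.

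**Figure D4:**
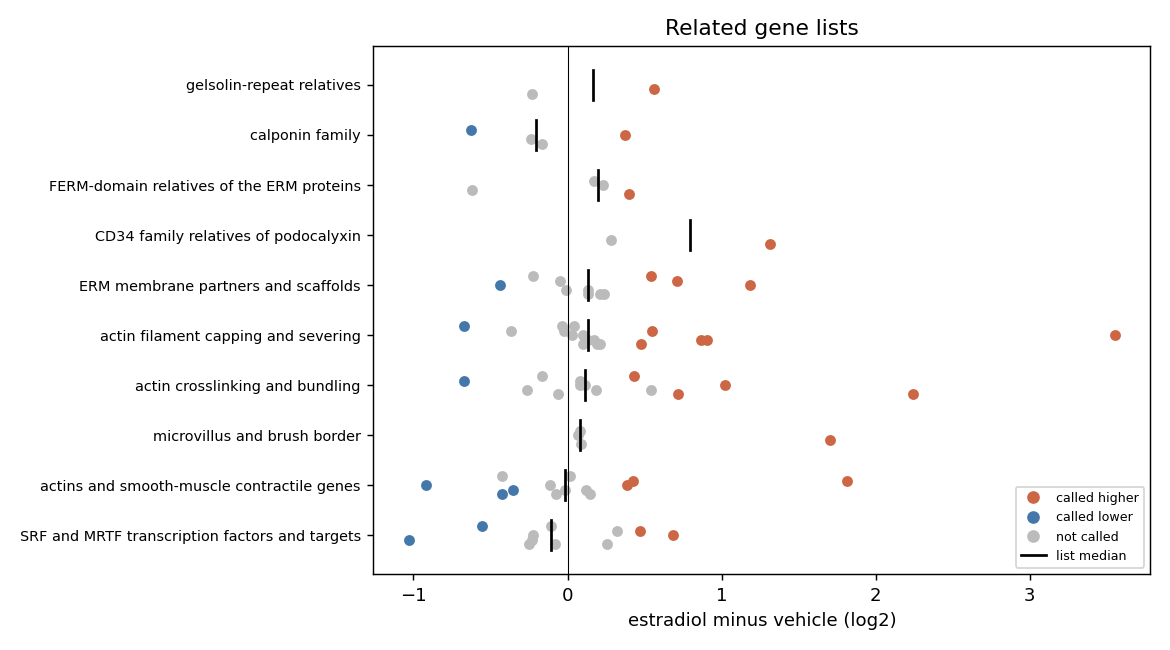
Log2 difference of estradiol minus vehicle (horizontal axis) for each tested gene of the 10 related lists, orange where called higher, blue where called lower and grey where not called, with the median of each list as a black bar. TMOD1 (a fitted 3.55) and MARCKSL1 (2.24) stand apart at the right, and list medians lie between -0.20 and 0.80.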

How the data were processed

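The authors deposited a table with the intensity of each gene row on each array with its detection p-value, not normalized between arrays per the file headers, and a table of intensities normalized between arrays. The software, the normalization and the way probes were joined into gene rows are not given in the sources used here. Rows whose detection p-values all fitted ranks among 770 negative controls (tolerance 0.002) were taken as single-probe (24130) and the others as combined (7282). A row at 0 throughout cannot be told apart and counts as single-probe. A further 3266 blank rows were left out.

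In R 4.3.3 with limma 3.58.1, normexp background parameters came from the single-probe rows, an offset of 16 was added, and values were quantile normalized and log2 transformed. The offset shrinks the differences of dim rows. Arrays of a culture were averaged by title. The titles assign the estradiol repeat to culture 1, whereas the series text names replicate 3. Combined rows have a detection p that does not rank their signal, so a row was tested where its signal reached the lowest detected (p under 0.01) single-probe row on at least 3 of 8 arrays, which kept 12164 rows against 11191 by detection p. Estradiol was compared with vehicle over 3 and 3 cultures by lmFit and eBayes, with Benjamini-Hochberg adjustment over all rows tested and a threshold of 0.05. The fit alone was tried on simulated culture values with independent normal errors. This does not test the background correction, the normalization, the repeats or the chips. Where a row was under the floor throughout a treatment, the text gives a lower bound on the fold, the brighter mean against the higher of its own level and the floor.

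The members, the 10 lists described and the tests were chosen with earlier results of these data known. Named were all members, ESR2, up to 4 called genes of each list with the smallest p and, where the smaller direction had at most 2 calls, those. Further list genes in the text were picked with their values known. A further list and 1 gene that the rule takes are not reported here. CDHR5 matched no row, and CDHR2 was matched through the older symbol PCDH24 in the GRCh38.p14 gene table. Alternatives covered repeats, chip, replicate number, background, offset, normalization, filter, variance model, array weights and each culture left out. Leaving out the vehicle 3 repeat alone was chosen after seeing the data.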

Additional observations from a re-analysis of the deposited data

How the results depend on the processing

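GSN and PODXL were called higher in all 21 alternatives in which they were tested, and neither was tested under the detection p filter. Of the 4 members called higher, only GSN and PODXL stayed called with the repeat arrays left out and within either chip. The same held with the vehicle 3 repeat alone left out. Under the detection p filter CAPG and MSN stayed called. Leaving out 1 culture at a time gave 2 to 5 members, with 2 without estradiol culture 3. No tested member and no called list gene changed sign, but every alternative reuses these arrays, so this is no independent support. Over all rows, 1671 were higher and 1754 lower. Calls over all rows fell in those settings too, to 1398 higher and 1288 lower without the repeat arrays. They fell to 1410 and 1313 within chip B and 1493 and 1430 without the vehicle 3 repeat. The detection p filter gave 1516 and 1576. The chip as a block gave 2623 and 2981, array weights 3404 and 3781, and chip A alone, with 3 arrays, 330 and 150. Median centring moved the median difference of all rows from -0.02 to 0.15 and left 598 lower against 2302 higher, making 79.4% of calls rises against 48.8% as reported. The members' differences of 0.25 to 2.59 under that centring are relative to this shift. Rows lower ran from 1022 (without vehicle culture 3) to 1903 over the cultures left out, with 1125 without estradiol culture 2 and 1053 without estradiol culture 3. Same-numbered cultures deviated together at r = 0.14, 0.14 and -0.03 across rows, so the numbers were not taken as pairs, and not every culture correlated best with its own number. The replicate block gave 1779 higher and 1892 lower, and 5 members, RDX being added (0.44). The detection p filter removed GSN and PODXL by construction, and the cause of the other shifts was not tested.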

Other observations

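For GSN, the member with the largest difference, the tested rows with the most similar pattern were sought after the mean of each treatment had been subtracted, so that the treatment itself did not enter. Over the 8 arrays, of which 2 pairs share a culture, Pearson's r was 0.988 for GOLGA1, a Golgi coiled-coil protein gene, 0.958 for RNF112, a RING finger gene, and 0.940 for P2RY11, a purinergic receptor gene. Their own log2 differences between treatments were 0.19, 0.10 and -0.36. These are the highest among the tested rows that carry a current gene symbol and are not members. They rest on few arrays and are given as a description.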
